A study of Pseudotsuga menziesii with 72 samples.

Results

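Needles of Douglas-fir (Pseudotsuga menziesii) taken at dusk on the second day of a diurnal course were compared with needles of the same trees taken at dawn on that day. The libraries were chosen by their titles, which count hours from a first collection that the growth protocol places at 2:00. Hour 28 of the course is 6:00 on day 2, called dawn here, and hour 40 is 18:00 on day 2, called dusk. These names stand for clock hours, since the labels used here give no light level. The comparison holds 12 of the 72 libraries of the study, 6 a side, with 1 library of every tree on each side.

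The trees were 3 years old, came from a low-elevation source in the Siskiyou region of Oregon and grew in Corvallis. Their names are 1A and 1B for the pair of half-sib family 1, 2A and 2B for family 2, and 3A and 3B for family 3, which makes 6 trees in 3 families by these names. The family tags in the labels carry the same number for families 1 and 2, so the division between these 2 rests on the names. The dusk and dawn sides hold the same trees and do not differ in genotype or treatment. The sampled needles were of that year's cohort and were collected in September, and polyA RNA was sequenced as strand-specific libraries. A separate collection-time label gives another clock time than the title for 10 of the 12 libraries, and the titles were used. The 6 trees are the replicates, sampled at both hours. With the tree as a block, p-values weigh the change against how it varies between these trees on a single date.

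In plants the circadian clock is a network of regulators that act in turn over the day. In Arabidopsis, Myb-like factors such as LHY are highest around dawn, pseudo-response regulators follow through the day, and a set of evening-phased regulators acts around dusk and represses the morning genes. Together with light and temperature this clock sets the daily course of transcripts for photosynthesis, starch turnover and growth. Needles are the evergreen photosynthetic organ of conifers, and a comparison of dusk with dawn sets evening-phased against morning-phased transcripts.

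The deposited tables bear transcript identifiers with no gene name, sequence or position, so no transcript could be tied to the clock or to another function, and needle identity could not be checked against marker genes. Whole needles were sequenced, and fewer cells of a type cannot be told apart from less RNA per cell. Levels are in CPM, the usual unit of counts relative to the library total, scaled by trimmed-mean (TMM) factors over all 72 libraries. They cannot show a change in the total RNA of a needle. The dawn libraries held 11 to 25.5 M counts (median 19.5 M) and the dusk libraries 18.7 to 34.4 M (median 25.5 M). The 2 shallowest were the dawn libraries of trees 3A and 3B.

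Many of the measured transcripts differed between dusk and dawn. Of 50101 transcripts tested, 15912 (31.8%) passed in edgeR's quasi-likelihood test with the tree as a block, at a Benjamini-Hochberg adjusted p under 0.05. At dusk 8320 (16.6%) were higher and 7592 (15.2%) were lower than at dawn. Without a filter on low counts 148934 were tested, 10146 were higher and 7100 lower, and the median log2 change was 0.169 there. With the libraries thinned to one depth 5414 were higher and 5298 lower (median log2 change −0.00903). With library totals without TMM factors the split was 7856 and 7801. The change of the 15912 that passed had a median of 1.92-fold, and the median log2 change of all 50101, with its sign, was 0.0155. At least 2-fold changes were called for 7407 transcripts (14.8%), of which 3827 were higher and 3580 lower at dusk. A 4-fold change was reached by 2397 (1145 higher, 1252 lower), a 10-fold change by 543 (242 higher, 301 lower) and a 32-fold change by 90 (32 higher, 58 lower). The count of all calls was 5120 without the tree as a block, and it was 10005 of 20381 when at least 1 CPM was required in every library.

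**Figure D1:**
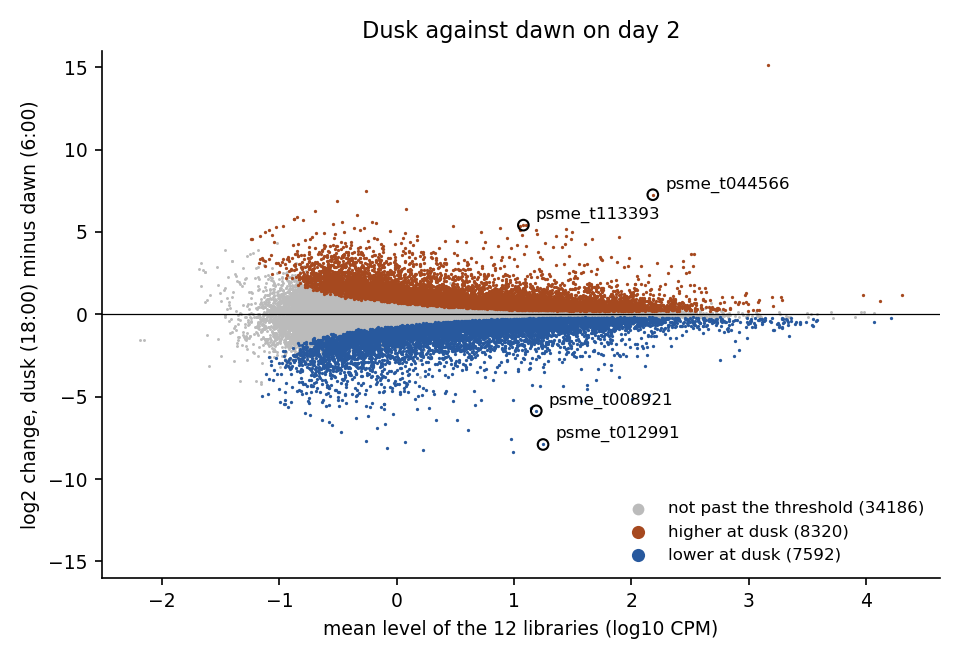
Log2 change from dawn to dusk on day 2 (vertical axis) against the mean level over the 12 libraries in log10 CPM (horizontal axis), 1 point a transcript, with those that passed coloured by direction and 3 transcripts with no count in the 12 libraries left out. The 8320 transcripts higher and the 7592 lower at dusk lie on both sides of 0, and the point at the top is psme_t004418, which moved in tree 1A.

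Transcripts absent from one side were few and scarce on the other. Among those that passed, 16 had no count in any dawn library, and their levels in the pooled counts of the 6 dusk libraries were 0.11 to 1.05 CPM. The largest of these pooled levels was 38.8 times a floor of 3 counts over the 6 dawn libraries (0.027 CPM). Another 20 had no count in any dusk library and pooled dawn levels of 0.162 to 1.26 CPM. Their largest pooled level was 68.5 times a floor of 0.0184 CPM, and neither ratio covers variation between trees. Changes between dusk and dawn were thus almost all changes of level in transcripts detected at both hours.

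Calls became more common and fitted changes smaller with abundance. In 4 equal classes with median levels of 0.259, 0.772, 3.47 and 24 CPM, 14.8%, 25.7%, 37.1% and 49.5% of transcripts passed. The median fold of those that passed was 4.45, 2.64, 1.83 and 1.43 in the same order. A small change of a scarce transcript cannot pass at these depths, so the folds of the called transcripts do not show that abundant transcripts change less. Of 1432 transcripts at or above 100 CPM, 816 passed (57%), 422 of them higher and 394 lower at dusk.

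The most abundant transcripts leaned to lower levels at dusk. At or above 1000 CPM 68 of 92 transcripts passed (73.9%), and 55 of them were lower at dusk while 13 were higher. Most of these changes were small, and only 5 of the rises and 1 of the falls reached 2-fold. The split was 10 higher and 59 lower with DESeq2 size factors and 13 higher and 57 lower with library totals. Without the tree as a block 18 passed, 3 of them higher and 15 lower.

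The direction of a change was compared between trees. Of the transcripts that passed, 12402 (77.9%) moved the same way in all 6 trees, 3003 in 5 trees and 507 in 4 or fewer, while 29.8% of all tested transcripts moved the same way in all 6. The test favours transcripts that move alike in the trees, so these shares describe the calls and do not support them. Agreement in 6 trees was 81.8% for transcripts higher at dusk and 73.7% for those lower. A stricter measure asks that the dusk and dawn libraries do not overlap in level. It held for 3377 of those that passed (21.2% of the calls and 6.74% of the transcripts tested), 1865 of them higher and 1512 lower at dusk.

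For part of the transcripts that did not pass, the data bound the change. Of the 34189 without a call, 9550 (27.9%) had a 95% interval that lay within 1.5-fold in either direction. Their median level was 12.1 CPM, against 0.522 CPM for the other transcripts without a call. For those others a change of 1.5-fold is not excluded by the interval. A call need not be a large change either, since 1864 transcripts that passed also had their whole interval within 1.5-fold.

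The 4 transcripts described next are the 2 largest rises and the 2 largest falls among those with a mean of at least 10 CPM and the same direction in all 6 trees. Of 11576 transcripts at or above 10 CPM, 5781 passed (49.9%), and 4954 of them, 2695 higher and 2259 lower at dusk, moved the same way in every tree.

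The largest rise was that of psme_t044566. Its dawn levels were 2.125 CPM (1A), 3.421 (1B), 2.366 (2A), 1.038 (2B), 1.021 (3A) and 1.081 CPM (3B). At dusk the same trees stood at 315.3, 238, 537, 137.7, 194.4 and 392.5 CPM, in the same order. Every tree rose, and the sides did not overlap. The means were 1.84 ± 0.97 CPM at dawn and 302.5 ± 146 CPM at dusk (SD, n = 6), a log2 change of 7.26 ± 0.24 (SE; edgeR, adjusted p = 3.28e-09).

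The second rise was that of psme_t113393, a scarcer transcript. In that order of trees, its dawn levels were 0.866, 0.405, 0.538, 0.189, 0.340 and 1.08 CPM, from 4 to 22 counts a library. Its dusk levels were 28.7, 21.04, 33, 15.3, 10.6 and 31.99 CPM. Trees 2B and 3A were the lowest at dusk, as they were for psme_t044566, and no dusk library came near the dawn range. The log2 change was 5.41 ± 0.18 (SE; edgeR, adjusted p = 2.78e-09), from 0.570 ± 0.339 to 23.5 ± 9.3 CPM (SD, n = 6).

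The largest fall was that of psme_t012991. From 1A to 3B, in the order above, it stood at 19, 36.01, 54.8, 38.7, 30.2 and 32.4 CPM at dawn. At dusk it stood at 0.103, 0.0784, 0.297, 0.117, 0.0817 and 0.198 CPM, which are 2 to 9 counts a library. The transcript was close to the limit of detection at dusk in every tree. The means were 35.2 ± 11.8 CPM at dawn and 0.146 ± 0.086 CPM at dusk (SD, n = 6), a log2 change of −7.90 ± 0.17 (SE; edgeR, adjusted p = 1.12e-10), and the few dusk counts limit the precision of that fold.

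The second fall was that of psme_t008921. In the same order of trees, its dawn levels were 19.4, 22.8, 33.98, 52.5, 21.6 and 32.03 CPM. The dusk levels were 0.616, 0.444, 0.297, 1.37, 0.163 and 0.396 CPM. Tree 2B was highest on both sides, and the sides did not overlap. The log2 change was −5.86 ± 0.22 (SE; edgeR, adjusted p = 7.65e-09), from 30.4 ± 12.3 to 0.548 ± 0.430 CPM (SD, n = 6).

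Neither of the 2 risers was highest at dusk itself. On day 2 psme_t044566 stood at 12.8 ± 4.9 CPM at 10:00, 677.8 ± 193 at 14:00, 302.5 ± 146 at 18:00 and 29.9 ± 14.3 at 22:00 (SD, n = 6). The course of psme_t113393 was alike, with 1.195 ± 0.57 CPM at 10:00, 52.2 ± 21.0 at 14:00, 23.5 ± 9.3 at 18:00 and 3.09 ± 0.91 at 22:00. Dusk caught both on the way down from a level at 14:00 that was higher in mean. The fallers were high at 6:00 and 10:00 and low from 14:00 to 22:00. At 10:00 psme_t012991 stood at 36.6 ± 17.8 CPM, which differed from its dawn mean by less than 1 SD, and psme_t008921 at 23.7 ± 11.3 CPM, also within 1 SD of its dawn mean.

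**Figure D2:**
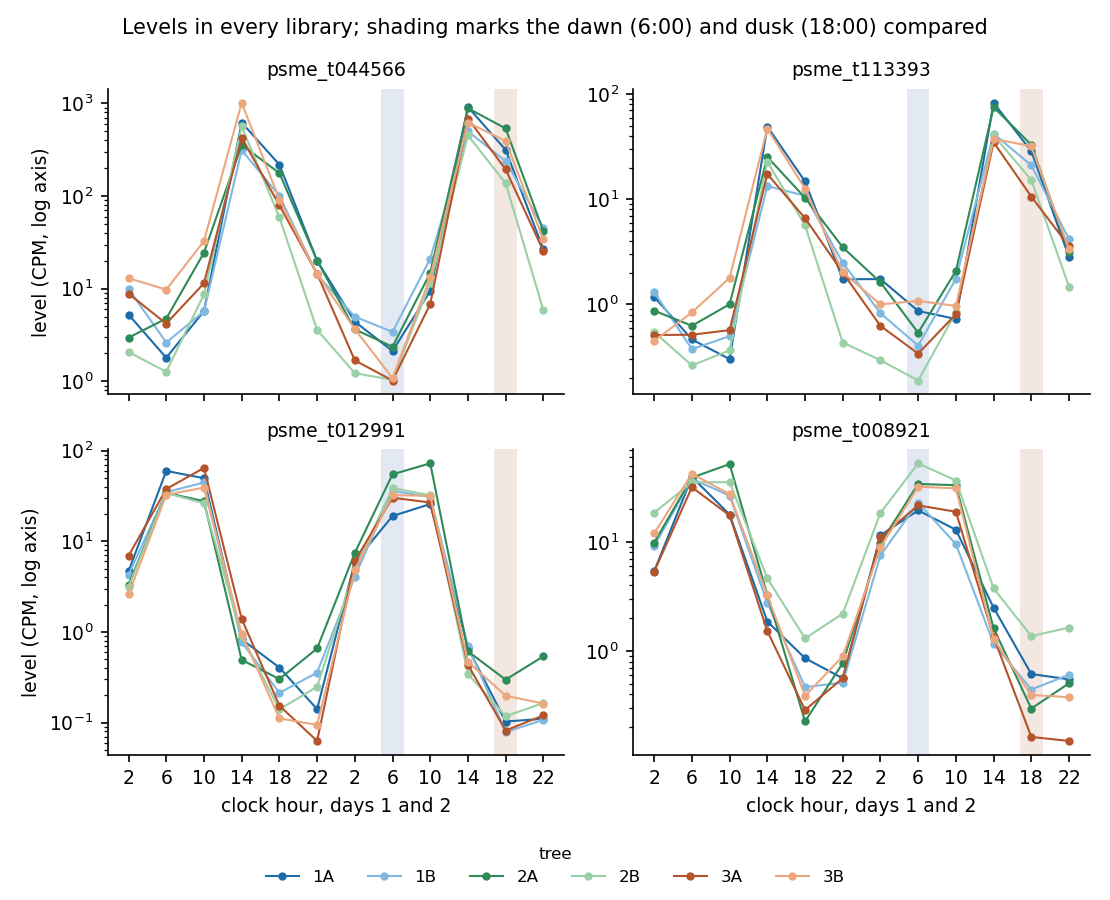
Levels in CPM (vertical log axis) of the 4 named transcripts in all 72 libraries by clock hour over both days (horizontal axis), 1 line a tree, with dawn and dusk of day 2 shaded. The 2 risers in the upper panels peak at 14:00 in mean and stand at 302.5 and 23.5 CPM at dusk, and the 2 fallers in the lower panels stand at 0.146 and 0.548 CPM there.

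A larger fitted change belonged to a transcript that moved in a single tree, and it was singled out after its values were seen. In edgeR psme_t004418 passed with a log2 change of 15.1 ± 0.96 (SE, adjusted p = 1.88e-05), yet it was higher at dusk in only 2 of 6 trees. At dusk it held 338201 counts (17360 CPM) in tree 1A, and at 2:00 of the same day it had 50320 CPM in that tree. No other library of the study exceeded 7.99 CPM. Without tree 1A its log2 change was 0.255 (adjusted p = 0.935).

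The size of the change from dawn to dusk varied between trees. Over the 11576 transcripts at or above 10 CPM, changes of at least 2-fold between the dawn and dusk libraries of a tree were fewest in 3B with 915 and most in 1B with 1610, and the remaining counts were 1025 in 3A, 1086 in 1A, 1119 in 2A and 1216 in 2B. These are single pairs of libraries with no error of their own, and the 2 trees with the shallow dawn libraries had the fewest. Across transcripts, the change of a tree correlated with the mean change of the other 5 least in 1A (r = 0.776) and most in 2B (r = 0.936), with 0.844 in 3B, 0.846 in 1B, 0.909 in 2A and 0.91 in 3A. These correlations describe transcripts that share libraries and are no test. Trees of a family were no more alike as a rule, since the correlation between pairs ran from 0.621 (1A with 1B) to 0.887 (2B with 3A), with 0.878 for 2A with 2B and 0.797 for 3A with 3B.

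A test of whether the change from dawn to dusk differed between families found no transcript. With so few trees a family, this does not exclude a difference. In edgeR 0 of 50101 passed (0%), 1096 (2.19%) had an unadjusted p under 0.05, and limma also passed 0, with 1505 at an unadjusted p under 0.05. The outcome moved with the tree left out: transcripts passed without 1A or without 1B, but not without 2A, 2B, 3A or 3B. Each of these fits leaves a family with 1 tree that is taken to vary as the other families do. The 2 transcripts of smallest p at or above 10 CPM were psme_t012870 and psme_t020887, both with an adjusted p of 1 in edgeR. In family 1, psme_t012870 went from 58.0 to 224.4 CPM in 1A and from 34.7 to 94.3 CPM in 1B. It went from 72.8 to 74.9 CPM in 2A and from 165.2 to 295.1 CPM in 2B. In family 3 it fell at low levels, from 1.36 to 0.0817 CPM in 3A and from 0.499 to 0.119 CPM in 3B. All 6 trees had more psme_t020887 at dusk, with 7.91 and 39.6 CPM in 1A, 8.60 and 34.1 in 1B, 33.3 and 50.5 in 2A, 15.5 and 30.8 in 2B, 4.17 and 6.04 in 3A and 51.8 and 69.1 in 3B.

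Both the tree and the hour accounted for much of the variance. Of the summed variance of log2 levels of the 11576 transcripts at or above 10 CPM, the tree accounted for 64.6% with 5 degrees of freedom and the hour for 29.1% with 1, which left 6.31%. On the first principal component (30.8% of the variance) the dawn libraries lay from −52.8 to −17.5 and the dusk libraries from 9.73 to 55.7, with no overlap. On the second component (23.3%) the 4 libraries of family 3 lay from −50.9 to −25.6 and the others from −2.53 to 45.9. Levels also spread more between trees at dawn than at dusk: the median SD of log2 levels was 0.324 at dawn and 0.288 at dusk, and 62.9% of the 11576 transcripts had the larger SD at dawn. Without trees 3A and 3B, whose dawn libraries were the shallowest, that share was 61.9%. The dawn library was also the shallower of the pair in 1B, 2A and 2B, and the deeper in 1A. Whether depth bears on this spread was not tested.

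**Figure D3:**
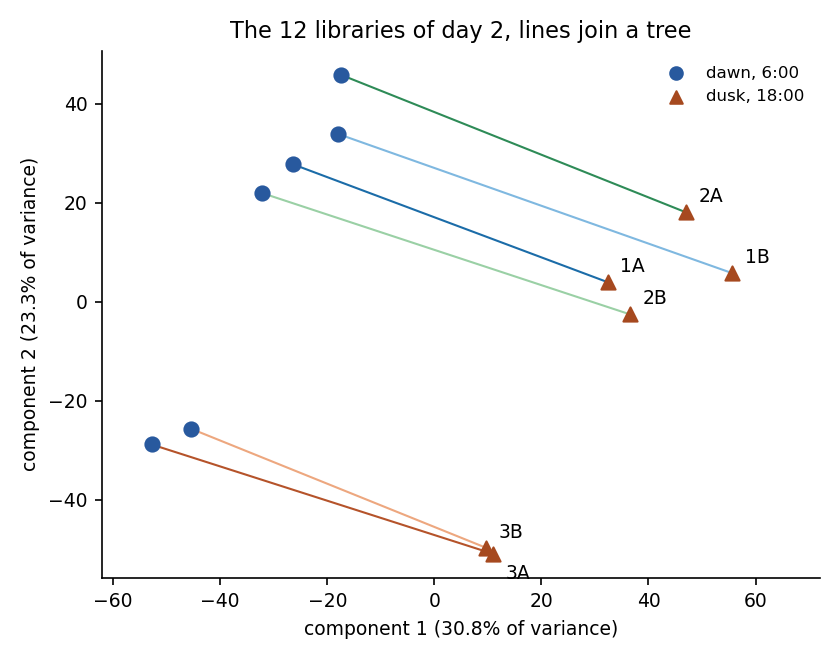
The 12 libraries on the first (horizontal) and second (vertical) principal components of log2 levels of transcripts at or above 10 CPM, in arbitrary units, with the hour by colour and the tree by its name. Dawn and dusk libraries are apart on the first component, at −17.5 and below against 9.73 and above, and family 3 is apart on the second.

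Properties of whole libraries were not shown to differ. The dusk libraries held more counts, 26.2 ± 5.9 M against 17.7 ± 5.6 M (SD, n = 6, higher in 5 of 6 trees), with p = 0.09375 in a two-sided exact permutation of signs within trees. The smallest p that 64 sign changes allow is 0.03125. The share of the 10 most abundant transcripts was 10.75% ± 1.25 at dawn and 13.7% ± 3.9 at dusk (SD, n = 6, exact permutation p = 0.125, higher in 4 of 6 trees). The number of transcripts with a count, with every library thinned to the same depth, was 45320 ± 1710 at dawn and 45980 ± 327 at dusk (exact permutation p = 0.3438). After adjustment over 5 such measures the lowest p of the exact permutation test was 0.3125, and with so few trees a single measure could not have passed that adjustment.

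The transcripts that passed hold a large part of the counts of a library. Those higher at dusk took 17.7% to 21.5% of the counts of the dawn libraries and 28.7% to 37.2% of the dusk libraries. Those lower at dusk took 35.7% to 39.4% at dawn and 22.3% to 27.4% at dusk. The members were chosen on these same libraries, so their separation there is a description of size. The gain rested on few transcripts in some trees, as the 10 largest gains held 6.27% of it in 1B and 68.8% in 3B, while the 10 largest losses held 12.7% to 16.4% of the loss in every tree.

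The transcript with the largest gain in share, singled out after its values were seen, was psme_t001906. Its share of the counts went from 0.854% to 1.11% in 1A, from 0.61% to 0.778% in 1B and from 0.699% to 2.68% in 2A. It went from 2.46% to 5.63% in 2B, from 1.3% to 1.68% in 3A and from 0.92% to 5.92% in 3B. All 6 trees rose, but the sides overlapped and the rise was several times larger in 2A, 2B and 3B than in the others. In edgeR its log2 change was 1.15 ± 0.31 (SE, adjusted p = 0.0134), and it did not pass in DESeq2 (log2 1.15, adjusted p = 0.301) or without the tree as a block (1.45, adjusted p = 0.114).

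**Figure D4:**
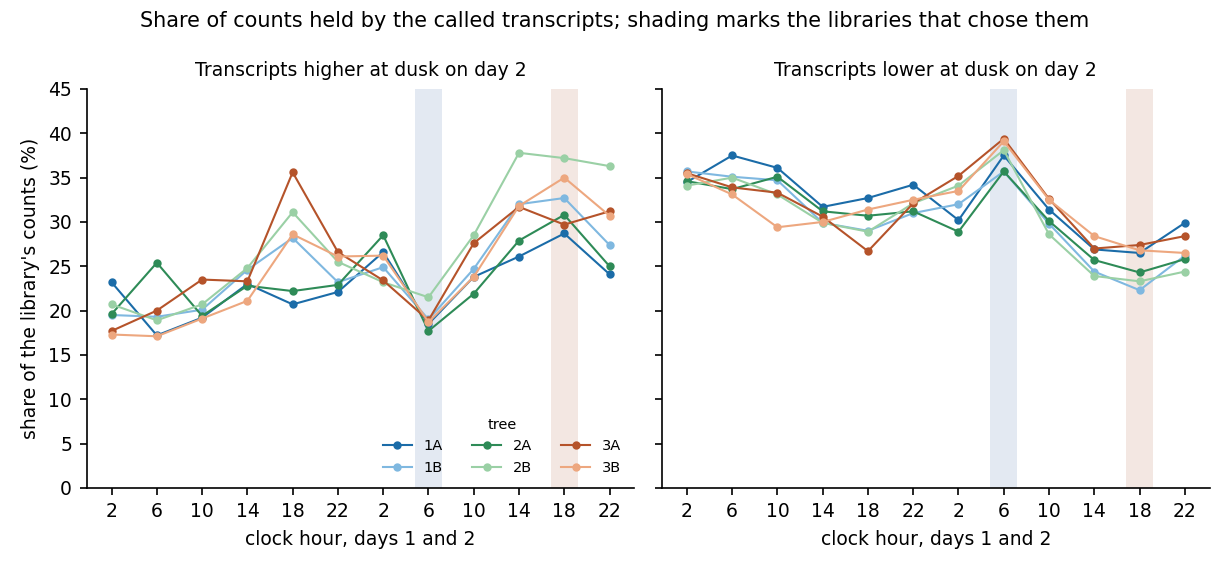
Percent of a library's counts (vertical axis) taken by the 8320 transcripts higher at dusk and by the 7592 lower at dusk, at the 12 collections (horizontal axis), 1 line a tree. The first set lies at 28.7% to 37.2% at dusk of day 2 and the second at 22.3% to 27.4%. Day 1 played no part in the test that chose the members, though its libraries entered the filter on low counts. The medians of the sets at 18:00 of that day are 28.4% and 29.8%, against 19.1% and 34.4% at 6:00. The first set ranges from 20.7% to 35.6% at 18:00 of day 1 and from 17.1% to 25.4% at 6:00.

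Among the transcripts that passed, the highest and lowest means of day 2 gathered at dusk and dawn, the hours that chose them. Among the 6 collections of day 2, 55.7% of those higher at dusk had their highest mean at 18:00 and 30.3% at 14:00, and 67.5% had their lowest at 6:00. Of those lower at dusk, 60% were highest at 6:00 and 20.5% at 10:00, and 51.6% were lowest at 18:00 and 28% at 14:00. The choice of members favours these hours, and the 2 hours were themselves picked on the premise that most transcripts peak near them. Among all tested, the highest mean fell at 18:00 in 19.7%, at 10:00 in 19.4% and at 6:00 in 18%. The lowest fell at 6:00 in 25% and at 18:00 in 18.2%. Over the other 4 collections, which the test that chose the members did not use, 61.4% of the transcripts higher at dusk were highest at 14:00. Another 29.2% were highest at 22:00, and the shares of all tested were 25.5% and 25.2%. Of those lower at dusk, 47% were highest at 2:00 and 38.5% at 10:00, against 23.1% and 26.2%.

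**Figure D5:**
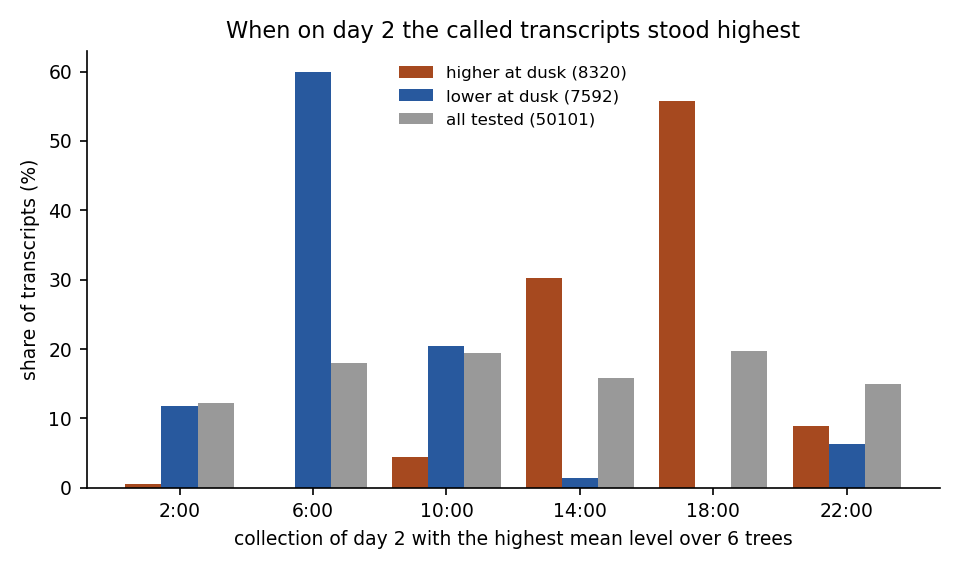
Percent of transcripts (vertical axis) with their highest mean level at each collection of day 2 (horizontal axis), for those higher at dusk, those lower at dusk and all tested. The first set gathers at 18:00 (55.7%) and 14:00 (30.3%), the second at 6:00 (60%) and 10:00 (20.5%), and 6:00 and 18:00 were used to choose the sets.

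Pairs of collections 4 h earlier and 4 h later, also 12 h apart and from other libraries of the same trees and day, showed how far the contrast reached. From 2:00 to 14:00 on day 2, 13933 transcripts passed (27.8%), with 14.2% of those tested rising and 13.6% falling. From 10:00 to 22:00, 11161 passed (22.3%), with 12.1% rising and 10.1% falling. Of the transcripts higher at dusk, 50.5% also rose from 2:00 to 14:00, which is 59.1% of all that rose there, and 87 fell. Fewer, 27.2% of them and 37.1% of the rises, also rose from 10:00 to 22:00, and 429 fell. Of the transcripts lower at dusk, 50.6% fell from 2:00 to 14:00 (56.4% of the falls) and 28.9% fell from 10:00 to 22:00 (43.3% of the falls), with 170 and 884 moving the other way.

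Both sets overlapped more with the earlier pair than with the later pair, by count. Of the 8320 transcripts higher at dusk, 3163 (38%) rose in the earlier pair alone, 1219 (14.7%) in the later alone, 1041 (12.5%) in both and 2897 (34.8%) in neither. Of the 7592 lower at dusk, 3210 (42.3%) fell in the earlier pair alone, 1561 (20.6%) in the later alone, 635 (8.36%) in both and 2186 (28.8%) in neither. Failing to pass there does not show that a transcript stayed level. The 4 named transcripts passed in both pairs in the direction they had at dusk, psme_t044566 with log2 changes of 7.73 ± 0.25 and 1.13 ± 0.29 (SE; edgeR, adjusted p = 4.45e-10 and 0.0194). For psme_t012991 the changes were −3.36 ± 0.20 and −7.49 ± 0.14 (SE; edgeR, adjusted p = 9.42e-08 and 1.64e-09).

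The same hours on day 1 gave fewer calls in largely the same directions. There 5060 transcripts passed (10.1%), 2604 higher (5.2%) and 2456 lower (4.9%) at dusk. Of the transcripts higher at dusk on day 2, 2154 were also higher on day 1, which is 25.9% of that set and 82.7% of the day 1 list, and 3 were lower. Of those lower at dusk on day 2, 1986 were also lower on day 1 (26.2% of the set, 80.9% of the list), and 10 were higher. The median log2 change on day 1 was 0.618 in the first set and −0.587 in the second, against −0.0096 over all transcripts tested. After removal of the collection means, the day 1 dawn library labelled 1B correlated across 11646 transcripts at 0.814 with the other libraries of 2A and at −0.273 with those of 1B. The library labelled 2A correlated at 0.701 with 1B and at −0.32 with 2A, while the other 4 dawn libraries lay nearest their own trees (0.767 to 0.895). Without trees 1B and 2A, 7162 transcripts passed on day 1.

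Without those 2 trees, 2732 of the transcripts higher at dusk on day 2 were higher on day 1 and 29 were lower, and 2444 of those lower at dusk were lower and 16 higher. The biological coefficient of variation was 0.38 on day 1 and 0.20 on day 2 with all trees, and without 1B and 2A it was 0.247 and 0.177. Levels of a tree, with collection means removed, were also less alike from hour 12 to hour 16 (median r = 0.701 over the 6 trees) than between the other neighbouring collections (medians 0.744 to 0.913). Dawn of day 1 lies before that step and dusk of day 1 after it, so on day 1 the step and the hour cannot be told apart. All 4 named transcripts passed on day 1 in the same direction in 6 of 6 trees as labelled. That fit kept the pairs of 1B and 2A, whose dawn libraries lay nearest each other's tree. For psme_t044566 the log2 change was 5.03 ± 0.45 (SE; edgeR, adjusted p = 0.000445), for psme_t113393 it was 4.28 ± 0.23 (adjusted p = 7.71e-05), for psme_t012991 it was −7.50 ± 0.20 (adjusted p = 1.57e-06) and for psme_t008921 it was −6.08 ± 0.34 (adjusted p = 7.71e-05).

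The change from dawn to dusk itself was tested for a difference between days. The step from hour 12 to hour 16 falls between dawn and dusk of day 1 alone. This test therefore cannot tell that step apart from a difference between days. In edgeR 126 transcripts passed (0.251%), with 46 more positive and 80 more negative on day 2, and 5470 had an unadjusted p under 0.05. That count rests on the trees used, since it was 42 without 1A, 46 without 1B, 130 without 2A, 6 without 2B, 9 without 3A and 18 without 3B. Without both 1B and 2A it was 90, of which 42 were among the 126, and it was 16 without the tree as a block. None of the 4 named transcripts passed this test, with adjusted p of 0.102 for psme_t044566, 0.154 for psme_t113393, 0.798 for psme_t012991 and 0.957 for psme_t008921. The rise of psme_t044566 was larger on day 2 by 2.29 ± 0.52 on the log2 scale (SE).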

How the data were processed

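Raw whole-number counts for 180879 transcripts in 72 libraries were used as deposited by the authors, and the submitters' processing notes name Bowtie2 2.2.3 and CASAVA 1.8. The transcriptome and the counting settings were not given in the sources used here. The authors also deposited a normalized signal of fewer transcripts (41382), for which the submitters' processing notes name DESeq. Where both tables hold a value above 0, it equals the count over one size factor per library, to within 7.55e-09.

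Transcripts were kept by filterByExpr over the 72 libraries (at least 10 counts, 15 in all). Dusk and dawn of day 2 were compared in edgeR 4.0.16 under R 4.3.3 on the 12 libraries with TMM factors and tree as a block, two-sided, with Benjamini-Hochberg adjustment over all 50101 transcripts. The same fit was made for 3 other pairs of collections, and terms for day and family were added in 2 further fits. The numbers pair the samples because they name the tree, and deviations of a tree's dusk and dawn libraries correlated at 0.672 to 0.906. Library measures were compared by exact permutation of signs. Spread and components used log2(CPM + 0.25).

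Named transcripts were the 2 largest rises and falls with a mean of at least 10 CPM and 1 direction in 6 trees, and for families the 2 of smallest p. The members, rules and lists were chosen with earlier results of these data known. Alternatives were DESeq2 1.42.0, limma 3.58.1 on normalized values with a pseudocount of 1 (for families on log2 CPM), other scalings and filters, the fit without the block, the spread from all libraries and each tree left out. Trees 1B and 2A were also left out together on day 1. Leaving out 3A with 3B, thinning to one depth and limma for families were added after seeing the data.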

Additional observations from a re-analysis of the deposited data

Results flagged for a closer look

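The dawn library of tree 3B held 42090 transcripts with a count after thinning to one depth, and the other 5 dawn libraries held 45200 to 47010, so it stood apart from its group. It was 1 of the 2 shallowest libraries. In 23 sets of 6 values, which were levels or measures of libraries or changes by tree from the same libraries, chance gives about 1.15 such cases.

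The change from dawn to dusk differed between day 1 and day 2 for 126 transcripts by the test of that difference. That count was 6 to 130 with a tree left out. The step within day 1 cannot be told apart from a difference between days.

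Of 247 transcripts that have normalized values but no raw counts, 24 (9.72%) passed between dusk and dawn of day 2 by limma on the normalized values, 6 of them higher and 18 lower at dusk. Over all transcripts with normalized values, 35.8% passed.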

How the results depend on the processing

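The day 2 count of 15912 lay between 11713 and 15924 with each tree left out, and was 14062 with DESeq2, 12440 without 3A and 3B and 10712 at one depth. It was 10005 with at least 1 CPM in every library. At least 2-fold changes numbered 1557 under that filter, 4820 with the filter on the 12 libraries alone, and 5852 to 7669 with a tree left out. Under the filter of 1 CPM fewer transcripts are tested. No setting called a transcript in the direction opposite to the one reported. The 4 named transcripts passed in every setting that tested them.

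Without the tree as a replicate block the counts were 5120 for dusk against dawn, 3337 for at least 2-fold changes, 4134 from 2:00 to 14:00, 1509 from 10:00 to 22:00, 16 for the difference between days and 18 of 92 for transcripts at or above 1000 CPM. Day 1 gave 4755, and the family test was not run without the block.

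With a tree left out, day 1 gave 2327 to 6220, 2:00 to 14:00 gave 10872 to 12968, 10:00 to 22:00 gave 7733 to 9950, the difference between days 6 to 130 and families 0 to 252. With at least 1 CPM, 2:00 to 14:00 gave 6942 and the difference between days 402. Dusk minus dawn turned without 3B in the effective number of transcripts (−310 to 65.4 over left-out trees) and the TMM factor (−0.0359 to 0.01421). Unless stated, the cause was not tested.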
